A study of Mus musculus with 9 samples.

Results

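The genes described here encode the subunits of the mitochondrial respiratory chain and of ATP synthase in mouse articular chondrocytes. They were chosen by symbol, as protein-coding genes beginning with Ndufa, Ndufb, Ndufc, Ndufs or Ndufv and a digit, Sdha to Sdhd, Uqcr, Cox4 to Cox8, Atp5, mt-Nd, mt-Co, mt-Cytb or mt-Atp. Of the 55471 genes listed in the files, 98 were members. The nuclear genome encodes 85 of them, with 35 in complex I, 4 in complex II, 8 in complex III, 20 in complex IV and 18 in ATP synthase. The mitochondrial genome encodes 13, with 7 in complex I, 1 in complex III, 3 in complex IV and 2 in ATP synthase. A filter on low counts left 94 members to be tested, 81 nuclear-encoded and 13 mitochondrially encoded. The 4 others were a second entry of Atp5o with 0 counts in Control and the tissue-restricted isoforms Cox7b2, Cox8b and Cox8c, also at 0 in Control.

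RNA came from 9 cultures of primary chondrocytes isolated from femoral condyles and tibial plateaus of wild-type mice at postnatal day 5. The 3 groups of 3 cultures were Control, Ad-OSCAR (given an adenovirus carrying Oscar, the gene of a collagen receptor) and Ad-OSCAR + 5-ASA treatment (the same virus, then 5-aminosalicylic acid). By the labels the cells had 3 days of culture, an adenovirus at 400 MOI for 2 h, and 36 h before 5-ASA. The study's methods name Ad-Control as the virus of the controls and plates coated with the collagen peptide COLpep, and give a higher MOI and shorter times. OSCAR was thus driven by a virus, the controls carried a virus too, and nothing in the labels says that the cultures of a group came from separate animals, so p-values measure the spread between these cultures only.

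The files hold 19733448 to 28192740 estimated counts per culture. Oscar stood at 0.123 to 0.211 CPM (TMM-scaled counts relative to library size) in Control, 6354 to 7112 CPM in Ad-OSCAR and 2946 to 3723 CPM in 5-ASA-treated cells. All 10 chondrocyte markers looked for were detected, with a summed level of 42820 to 48590 CPM in Control, 3975 to 4383 CPM in Ad-OSCAR and 4791 to 5194 CPM with 5-ASA. The summed level of 4 fibroblast markers was 13190 to 14050, 9580 to 10440 and 11680 to 12920 CPM in the same order. Markers of skeletal muscle, whose cells are rich in mitochondria, summed to at most 2.26 CPM in any culture, and those of brown fat to at most 0.425 CPM. Osteoblast markers summed to 33.7 to 40.4 CPM in Control, 4.84 to 7.34 CPM in Ad-OSCAR and 12.7 to 13.9 CPM with 5-ASA, and macrophage markers to 5.55 to 7.61, 13.1 to 14.0 and 11.7 to 11.9 CPM. Of the 7 macrophage markers 2 averaged at least 1 CPM, and Cd68 made most of the rise (1.99 to 8.21 CPM on average with Ad-OSCAR). Against the fall of their sums, Prg4 rose from 246.6 to 897.3 CPM and Col3a1 from 4253 to 7009 CPM with Ad-OSCAR. The other chondrocyte and fibroblast markers fell. The part of these marker differences in the results below was not tested, and fewer cells of a type and less RNA per cell cannot be told apart in bulk RNA.

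The respiratory chain passes electrons from NADH (complex I) and succinate (complex II) through complex III to oxygen at complex IV, and complexes I, III and IV pump protons across the inner mitochondrial membrane. ATP synthase lets the protons back and makes ATP. Subunits of all of these except complex II are encoded in part by the small circular genome of mitochondria, which is transcribed separately from the nucleus, so the nuclear and mitochondrial members of a complex have to be made in step. Cartilage has few blood vessels, and chondrocytes are known for relying largely on glycolysis while keeping working mitochondria.

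The sequences of the mitochondrial genes bear on their counts. The mouse nuclear genome carries inserted copies of mitochondrial DNA. A cluster of such pseudogenes on chromosome 1 (GRCm38) is almost identical to the segment from mt-Co1 into mt-Nd4. There Gm28439 matches 876 of the 1378 bases of mt-Nd4. These 60-base stretches, given 5′ to 3′ from the GENCODE M21 transcripts in lower case, are shared base for base by a member and its nuclear pseudogene, so that a read from them fits both.
mt-Co2 (chrM:7323-7382, plus strand) and Gm28661 (chr1:24615196-24615255, minus strand): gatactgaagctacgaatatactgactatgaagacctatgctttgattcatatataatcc
mt-Co3 (chrM:8968-9027, plus strand) and Gm28437 (chr1:24613551-24613610, minus strand): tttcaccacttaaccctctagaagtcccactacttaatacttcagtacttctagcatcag
mt-Atp6 (chrM:8236-8295, plus strand) and Gm10925 (chr1:24614283-24614342, minus strand): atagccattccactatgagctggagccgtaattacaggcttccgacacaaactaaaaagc

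The identity runs over the whole pseudogene in these pairs. The longest identical stretch was 681 of the 684 bases of mt-Co2, 783 of the 784 bases of mt-Co3 and 678 of the 681 bases of mt-Atp6. RSEM, which made the counts, divides reads that fit several genes between them, and most of the reads of these genes were placed on the copies. Of the counts of mt-Co2 and its copies together, 97.2% to 98.9% were on the copies over the 9 cultures. The same share was 90.8% to 99.995% for mt-Co3, 91.9% to 97.7% for mt-Atp6 and 81.5% to 92.3% for mt-Nd3. It was 39.6% to 64.0% for mt-Nd4l, 8.88% to 13.5% for mt-Co1 and at most 0.023% for mt-Nd4. In all, 30 members had a pseudogene copy of at least 95% identity over 100 bases or more, and 9 had over 10% of the reads on it in at least 1 culture. Among nuclear-encoded members these were Ndufb4, with 43.8% to 50.8%, Cox7a2l, with 18.2% to 21.2%, and Ndufa12, with 8.60% to 12.3%. For mitochondrial members, values are therefore given as deposited and again with the counts of the copies added, an alternative chosen after seeing the data.

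Levels between genes were compared in TPM, which takes transcript length into account. In Control, the tested nuclear-encoded members had a median of 151.0 TPM, and 54 of the 81 were above 100 TPM. The medians by complex were 101.0 TPM for complex I, 91.3 TPM for complex II, 221.0 TPM for complex III, 195.5 TPM for complex IV and 262.8 TPM for ATP synthase. The highest nuclear-encoded member was Ndufa4l2, a relative of the complex IV subunit NDUFA4 known to be induced by hypoxia, at 938.5 TPM, ahead of the catalytic ATP synthase subunit Atp5b at 887.8 TPM. Ndufa4l2 lies over Shmt2, which runs in the opposite direction; whether reads were counted by strand is not given in the sources used here. The lowest was Cox6a2, the heart and muscle form of COX6A, at 2.23 TPM. The 13 mitochondrially encoded members had a median of 2328 TPM. The value of mt-Atp8 (19440 TPM) rests on an effective length of 35.1 bases and cannot be compared with the others.

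Mitochondrially encoded transcripts were lower in Ad-OSCAR than in Control cells. As deposited, 11 of the 13 fell and 0 rose, against 32.2% of all 15362 genes tested that fell and 32.7% that rose (65.0% in either direction; edgeR's quasi-likelihood test, Benjamini-Hochberg adjusted p below 0.05 over all genes). Their median log2 fold change was -0.43, and that of all genes was 0.02. The 2 members that did not pass, mt-Co2 and mt-Atp6, were among those whose reads lay mostly on the nuclear copies. With the copies added, all 13 fell, by 0.15 (mt-Co1) to 0.64 (mt-Cytb) on the log2 scale, with a median of -0.46 and no overlap between the groups (background with copies added, 32.3% lower and 32.9% higher; groups did not overlap for 69.0% of all genes). DESeq2 called 8 of the 13 on the deposited counts, without mt-Nd3, mt-Nd4l and mt-Co3 (adjusted p = 0.145, 0.143 and 0.265), and limma on log2(TPM + 1) called 7. With each of the 9 cultures left out in turn, 9 to 11 of the 13 fell on the deposited counts, and the median lay between -0.48 and -0.39.

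**Figure D1:**
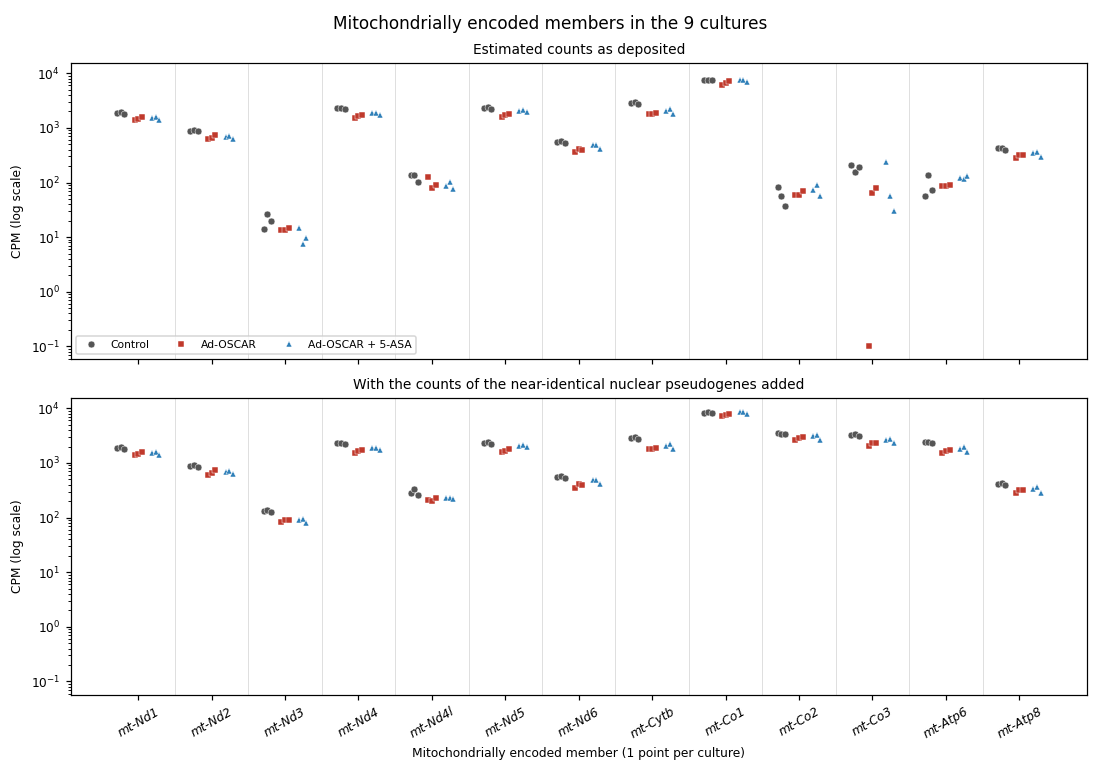
Level of each mitochondrially encoded member in the 9 cultures, in TMM-scaled CPM on a log axis, with 1 point per culture (circles Control, squares Ad-OSCAR, triangles Ad-OSCAR + 5-ASA). In the upper panel, with counts as deposited, mt-Co3 ranges from 0.102 CPM in 1 Ad-OSCAR culture to 238.3 CPM in 1 treated culture. In the lower panel, with the counts of the nuclear copies added, the Ad-OSCAR points lie below the Control points for all 13 genes.

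Complex III's only mitochondrial subunit, mt-Cytb (cytochrome b, ENSMUSG00000064370.1, on chrM), was at 2819, 2990 and 2713 CPM in Control, 1779, 1790 and 1884 CPM in Ad-OSCAR, and 2027, 2191 and 1821 CPM with 5-ASA. Every Ad-OSCAR culture was below every Control culture, and the treated cultures overlapped the untreated ones. Its log2 fold change with Ad-OSCAR was -0.64 (SE 0.06, adjusted p = 9.58e-09, edgeR), and 0.15 with 5-ASA (SE 0.06, adjusted p = 0.0781, edgeR).

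Among the complex I subunits, mt-Nd4 (part of the proton-pumping membrane arm) was at 2277, 2317 and 2213 CPM in Control, 1534, 1663 and 1744 CPM in Ad-OSCAR, and 1863, 1905 and 1712 CPM with 5-ASA. Next along the genome, mt-Nd5 was at 2295, 2402 and 2226 CPM in Control, 1569, 1686 and 1832 CPM in Ad-OSCAR, and 2042, 2138 and 1940 CPM with 5-ASA. On the other strand, mt-Nd6 was at 556.7, 568.8 and 527.0 CPM, then 355.2, 408.2 and 388.0 CPM, then 479.2, 496.1 and 418.4 CPM. For mt-Nd5 and mt-Nd6 the 3 groups did not overlap, with Control highest and Ad-OSCAR lowest. The log2 fold changes with Ad-OSCAR were -0.46 for mt-Nd4, -0.44 for mt-Nd5 and -0.52 for mt-Nd6 (SE 0.05, 0.05 and 0.06). The ends of mt-Nd5 and mt-Nd6 overlap on opposite strands. The other complex I members fell by 0.34 (mt-Nd1), 0.41 (mt-Nd2), 0.52 (mt-Nd3) and 0.37 (mt-Nd4l) on the log2 scale. The groups overlapped for mt-Nd3 and mt-Nd4l on the deposited counts, but not once the copies were added, with log2 fold changes of -0.60 and -0.47.

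The complex IV genes encode its catalytic core. For mt-Co1 the deposited levels were 7475, 7547 and 7548 CPM in Control, 6225, 6528 and 7150 CPM in Ad-OSCAR, and 7458, 7653 and 6927 CPM with 5-ASA. It fell by 0.18 with Ad-OSCAR (SE 0.05, adjusted p = 0.00238, edgeR), the smallest fall among the mitochondrial members that passed. With the total count as the scaling, the fall was 0.05 and did not pass (adjusted p = 0.316, edgeR). For mt-Co3 the deposited counts were 4357, 3718 and 3581 in Control, 3, 1566 and 2226 in Ad-OSCAR, and 6196, 1530 and 746 with 5-ASA. The log2 fold change of -1.93 (SE 0.72, adjusted p = 0.0265, edgeR) rests on groups in which single cultures lay this far apart. With the copy Gm28437 added, mt-Co3 was at 3274, 3394 and 3152 CPM in Control, 2083, 2307 and 2309 CPM in Ad-OSCAR, and 2580, 2693 and 2356 CPM with 5-ASA. The cultures of each group then lay close together, the groups did not overlap, and the log2 fold change was -0.55 (SE 0.05, adjusted p = 2.76e-08, edgeR).

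For mt-Co2 the sign turned: as deposited it had a log2 fold change of 0.08 (SE 0.19, adjusted p = 0.724, edgeR), and with its copies -0.29 (SE 0.06, adjusted p = 0.000194, edgeR). Of the ATP synthase genes, mt-Atp6, part of the proton channel, was at 56.3, 134.9 and 72.5 CPM in Control and 87.1, 87.9 and 89.5 CPM in Ad-OSCAR as deposited, with a log2 fold change of -0.00 (SE 0.19, adjusted p = 0.987, edgeR). With Gm10925 added it was at 2398, 2396 and 2366 CPM in Control and 1519, 1675 and 1729 CPM in Ad-OSCAR, a fall of 0.54 (SE 0.06, adjusted p = 1.94e-07, edgeR). The other gene, mt-Atp8, for which no annotated copy passed the limits given above, fell by 0.43 (SE 0.07). It lies within the segment that the cluster resembles, so reads it may share with the nuclear insertion were not counted.

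**Figure D2:**
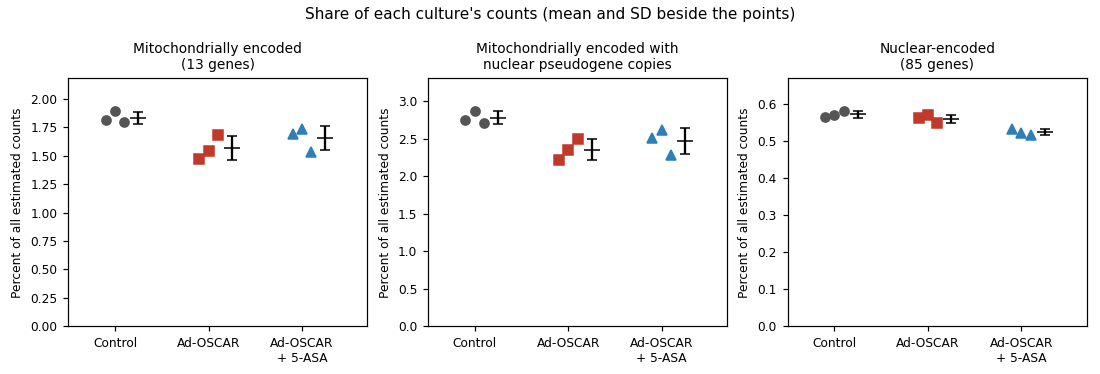
Percent of each culture's estimated counts on the 13 mitochondrially encoded members, on the same members with their nuclear copies, and on the 85 nuclear-encoded members. Points are cultures, and the black mark beside them is the mean with its SD (n = 3). The mitochondrial share is lower in all 3 Ad-OSCAR cultures than in all 3 Control cultures, and the nuclear-encoded share is lowest in the 3 treated cultures.

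As a share of all counts, the mitochondrial members held 1.82%, 1.89% and 1.79% in Control, 1.47%, 1.54% and 1.68% in Ad-OSCAR, and 1.69%, 1.74% and 1.54% with 5-ASA. Control did not overlap with either other group, and the Ad-OSCAR groups overlapped with each other. With the copies, the group means were 2.78% ± 0.0856, 2.36% ± 0.138 and 2.47% ± 0.169 (SD, n = 3). The nuclear-encoded members together held 0.573% ± 0.00891 in Control, 0.561% ± 0.0108 in Ad-OSCAR and 0.525% ± 0.00798 with 5-ASA (SD, n = 3). Control and Ad-OSCAR overlapped in that share of counts, but not in the share of TPM (1.62% ± 0.0330 and 1.52% ± 0.0132), and every treated culture was below every untreated one in both.

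Nuclear-encoded members moved less with Ad-OSCAR, and in both directions. Of the 81 tested, 15 rose and 33 fell, or 59.3% called against 65.0% of all genes. Only 2 of them passed the fold limit of 1.5 on the log2 scale with an adjusted p below 0.05, Cox6b2 upwards and Cox6a2 downwards, where 9.96% of all genes did (4.57% upwards and 5.39% downwards). Between the groups, 73 of the 81 (90.1%) differed by less than 1.5-fold, compared with 65.5% of all genes, and the median size of the log2 fold change was 0.165, compared with 0.382. The median log2 fold change was -0.08 and that of all genes 0.02. Its sign depended on the scaling: with the total count in place of TMM the median of all genes moved up by 0.13, the nuclear-encoded median became 0.04, and 27 rose and 20 fell. Relative to the median of all genes, a difference that a library scaling leaves as it is, the nuclear-encoded median was -0.10 and the mitochondrial one -0.45.

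**Figure D3:**
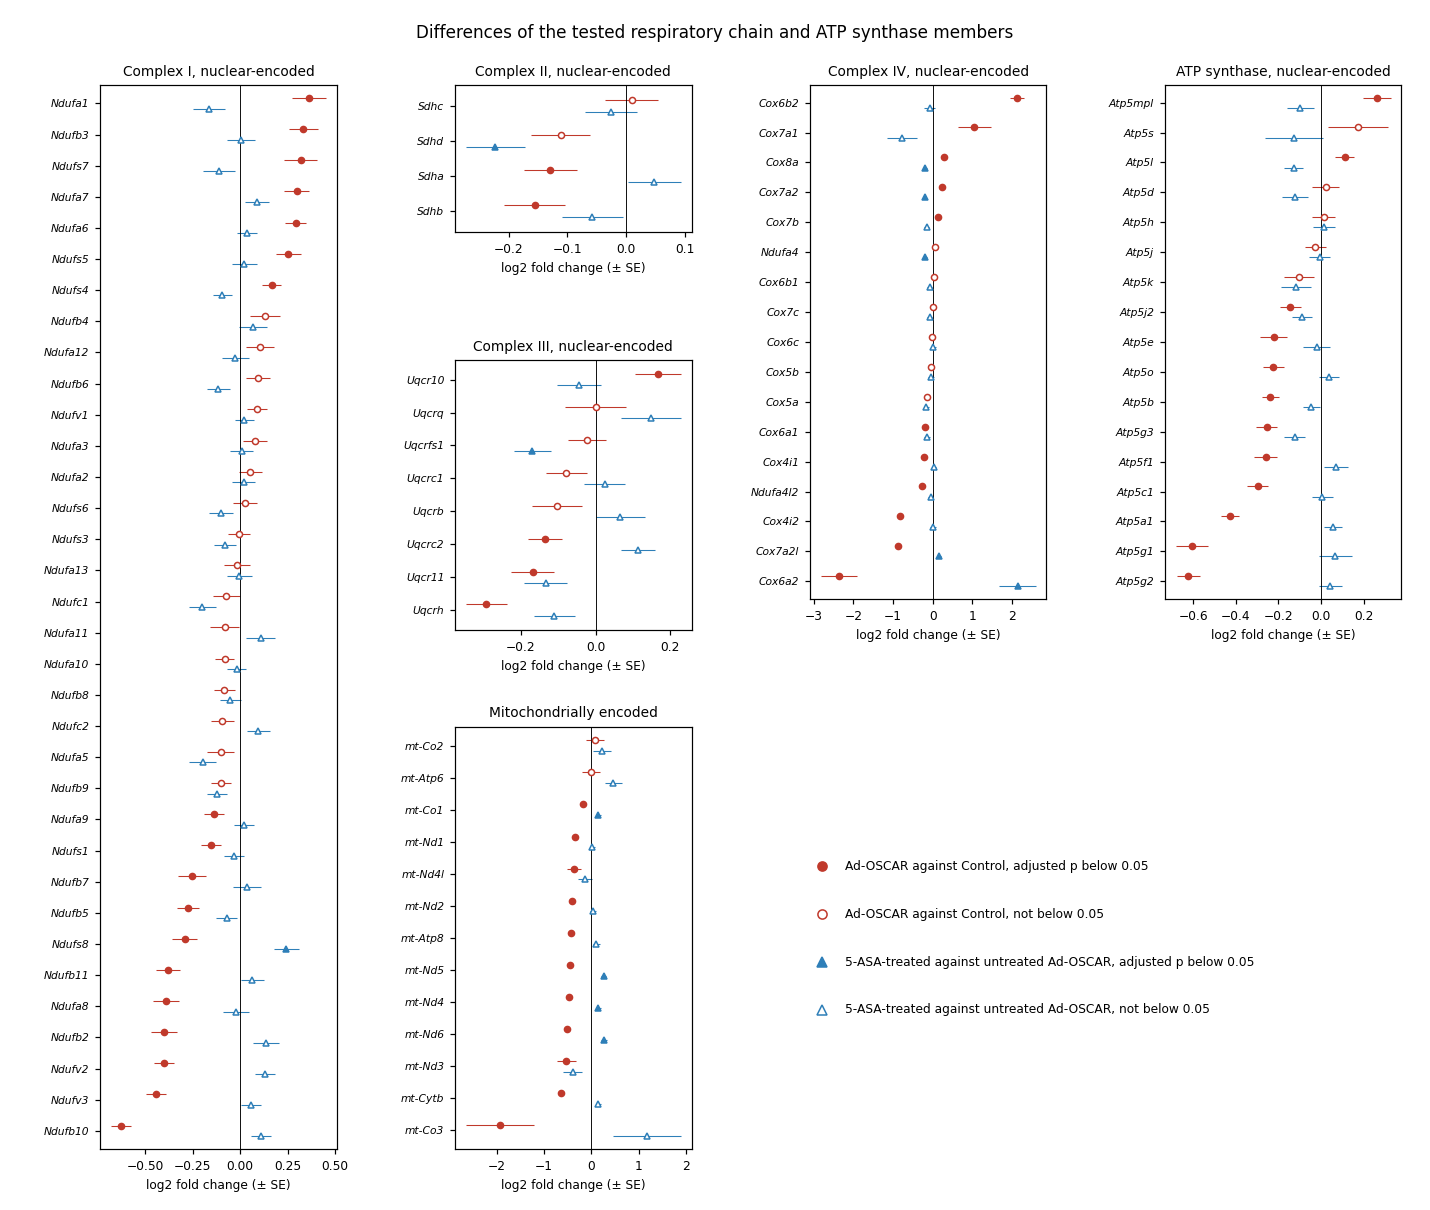
Log2 fold change with its standard error for the tested members except 1 of complex I, by complex, for Ad-OSCAR against Control (circles) and for 5-ASA-treated against untreated Ad-OSCAR cells (triangles), on TMM-scaled deposited counts. Filled symbols passed an adjusted p of 0.05, and the horizontal axes differ between panels. Circles fall on both sides of 0 in complexes I and IV, lie mostly to the left in ATP synthase (10 of 17 fell and 2 rose), and 12 triangles are filled.

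Complex I had 7 nuclear members that rose (20.0%) and 12 that fell (34.3%) out of 35, where 32.7% of all genes rose and 32.2% fell. The median of its nuclear members was -0.08 (0.04 with the total count). The called members were spread over the modules of the enzyme. In the N module, which takes electrons from NADH, 3 of 10 rose and 3 fell. In the Q module, which passes them to ubiquinone, 1 of 6 rose and 3 fell. In the membrane arm, 0 of 5 rose and 3 fell in the ND4 module, while 1 of 5 rose and 0 fell in the ND2 module.

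Ndufb10 (ENSMUSG00000040048.14, chromosome 17, 24722060 to 24724478), an accessory subunit of the membrane arm, had the largest fall. It was at 44.6, 40.2 and 43.5 CPM in Control, 28.3, 28.1 and 26.7 CPM in Ad-OSCAR, and 30.5, 29.3 and 29.7 CPM with 5-ASA, a log2 fold change of -0.63 with Ad-OSCAR (SE 0.05, adjusted p = 9.76e-09, edgeR). Ndufv3 and Ndufv2 of the N module fell by 0.44 and 0.40, Ndufb2 by 0.40, Ndufa8 by 0.39 and Ndufb11 by 0.38 (SE 0.05 to 0.07). Among core subunits, Ndufs1 fell by 0.15 (adjusted p = 0.0191, edgeR), which did not pass with the total count as scaling, and Ndufv1, which binds NADH, had a log2 fold change of 0.09 (SE 0.05, adjusted p = 0.143, edgeR).

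The rises were smaller. Ndufa1 (chromosome X, 37187588 to 37191163), an accessory subunit of the membrane arm, was at 20.6, 23.3 and 18.5 CPM in Control, 29.7, 25.2 and 25.5 CPM in Ad-OSCAR, and 25.6, 24.8 and 21.5 CPM with 5-ASA. Control and Ad-OSCAR did not overlap, and the log2 fold change was 0.36 (SE 0.09, adjusted p = 0.00149, edgeR). Ndufb3 rose by 0.33, Ndufs7, a core subunit of the Q module with an iron-sulfur cluster, by 0.32, Ndufa7 by 0.30 and Ndufa6 by 0.29. These calls also passed with the total count as scaling. That scaling moved the median of all genes up by 0.13, so it does not test a rise.

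Complex II, succinate dehydrogenase, moved little. Sdha, the flavoprotein, was at 131.4, 130.6 and 130.3 CPM in Control and 114.7, 121.5 and 122.5 CPM in Ad-OSCAR, and Sdhb, the iron-sulfur subunit, at 55.4, 49.4 and 51.5 CPM and then 48.0, 47.0 and 45.2 CPM. They fell by 0.13 and 0.16 (SE 0.05 each), with no overlap, and the total count as scaling gave -0.00 and -0.03. The membrane anchors Sdhc and Sdhd had log2 fold changes of 0.01 and -0.11 (SE 0.04 and 0.05), with overlapping groups. In complex III, 3 of 8 nuclear members fell (37.5%) and 1 rose (12.5%), where 32.2% of all genes fell and 32.7% rose. The hinge protein Uqcrh fell by 0.29, Uqcr11 by 0.17 and the core protein Uqcrc2 by 0.14, and Uqcr10 rose by 0.17. The core protein Uqcrc1 and the Rieske iron-sulfur protein Uqcrfs1 had log2 fold changes of -0.08 and -0.02 (SE 0.06 and 0.05; adjusted p = 0.230 and 0.700, edgeR).

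In complex IV, 5 of 17 tested nuclear members rose (29.4%) and 6 fell (35.3%), near the 32.7% and 32.2% of all genes, and the largest changes were in isoforms and in a factor for supercomplexes. Cox7a2l (ENSMUSG00000024248.14, chromosome 17, 83501918 to 83517330), known as a factor that joins complexes III and IV in supercomplexes, was at 94.7, 100.9 and 98.6 CPM in Control, 54.2, 54.7 and 51.7 CPM in Ad-OSCAR, and 59.3, 61.9 and 59.6 CPM with 5-ASA. The 3 groups did not overlap. It fell by 0.87 with Ad-OSCAR (SE 0.05, adjusted p = 9.41e-12, edgeR), to 53.5 ± 1.62 from 98.1 ± 3.16 CPM (SD, n = 3). The share of its reads on its pseudogene Gm6969 was nearly constant over cultures, as given above.

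**Figure D4:**
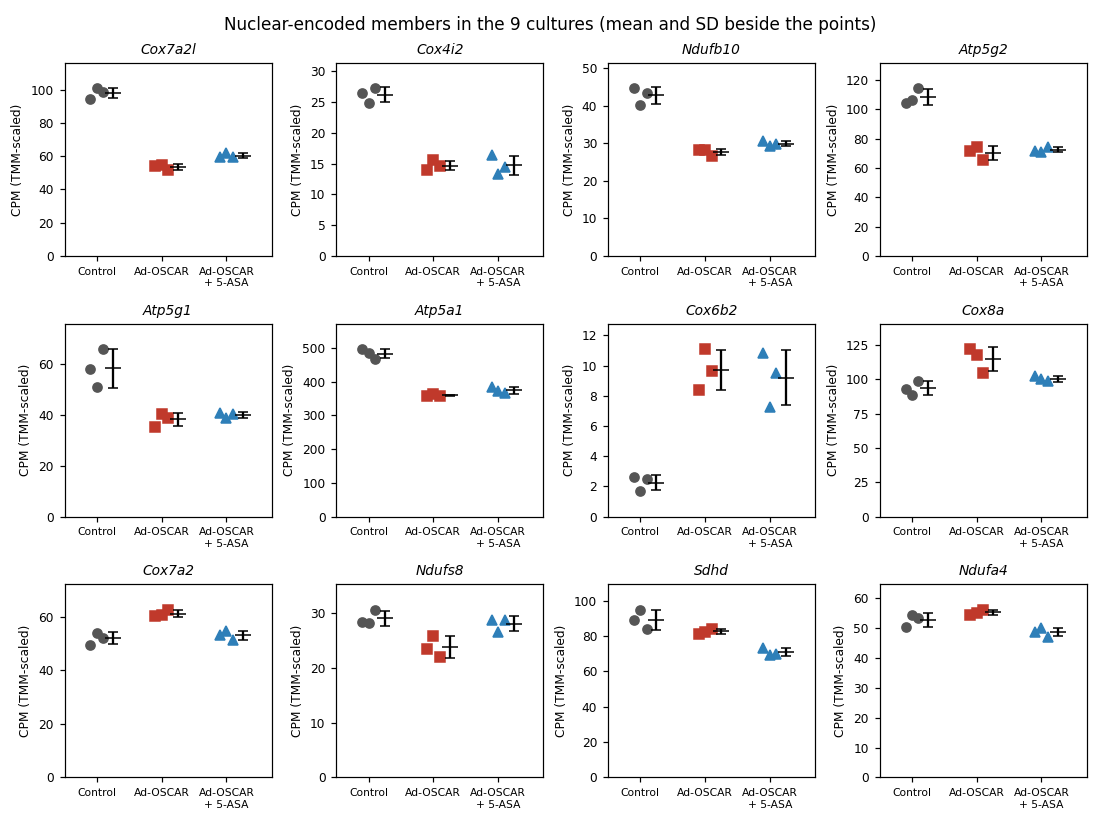
TMM-scaled CPM of 12 nuclear-encoded members in the 9 cultures, with the mean and SD (n = 3) beside the points and every axis starting at 0. Cox7a2l, Cox4i2, Ndufb10, Atp5g2, Atp5g1 and Atp5a1 are lower in all Ad-OSCAR cultures than in all Control cultures, and Cox6b2 and Cox8a are higher. Ndufs8 is higher, and Sdhd, Ndufa4 and Cox7a2 are lower, in all treated cultures than in all untreated Ad-OSCAR cultures.

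Several subunits of complex IV have a widely used form and a form found in few tissues. Of the pair of COX4 genes, Cox4i2, known as a hypoxia-responsive form, was at 26.4, 24.9 and 27.2 CPM in Control, 14.0, 15.5 and 14.6 CPM in Ad-OSCAR, and 16.4, 13.3 and 14.4 CPM with 5-ASA. It fell by 0.83 (SE 0.08, adjusted p = 2.42e-08, edgeR), and Cox4i1, the common form, by 0.22 (SE 0.05, adjusted p = 0.00121, edgeR), which did not pass with the total count as scaling (-0.09). As a share of the pair's TPM, Cox4i2 made up 11.6%, 10.9% and 11.8% in Control, 7.19%, 7.92% and 8.17% in Ad-OSCAR, and 8.04%, 7.30% and 7.43% with 5-ASA. The share was lower in every culture with Ad-OSCAR than in every Control culture, whether treated or not.

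The COX6B pair moved the other way. Cox6b2 (ENSMUSG00000051811.14, chromosome 7, 4751792 to 4753094), a form best known from testis, was at 2.596, 1.685 and 2.484 CPM in Control, 8.41, 11.1 and 9.64 CPM in Ad-OSCAR, and 10.8, 7.26 and 9.49 CPM with 5-ASA. It rose by 2.12 (SE 0.18, adjusted p = 7.42e-09, edgeR), from 41 to 55 counts per culture in Control to 248 to 271 in Ad-OSCAR. Its share of the pair went from 2.74% ± 0.698 in Control to 10.4% ± 1.73 in Ad-OSCAR and 10.3% ± 1.99 with 5-ASA (SD, n = 3). The common form Cox6b1 had a log2 fold change of 0.02 (SE 0.06, adjusted p = 0.784, edgeR).

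**Figure D5:**
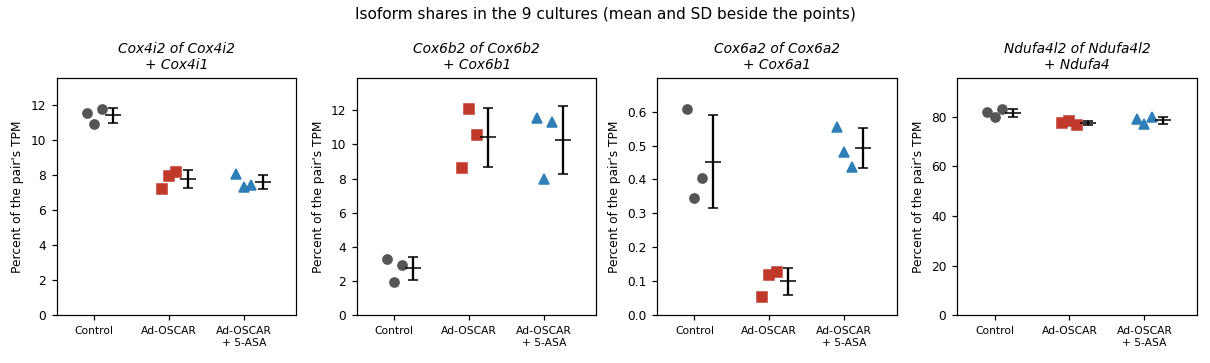
Share of the restricted isoform in the TPM of its isoform pair, in percent, for 4 pairs in the 9 cultures, with mean and SD (n = 3) beside the points. Cox4i2 takes a smaller and Cox6b2 a larger share in the 6 cultures with Ad-OSCAR than in the 3 Control cultures, and Cox6a2 is lowest in the 3 untreated Ad-OSCAR cultures at shares below 1%.

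Muscle-type isoforms stayed at the edge of detection. Cox6a2 had 19, 11 and 12 counts in Control, 2, 4 and 4 in Ad-OSCAR, and 17, 14 and 13 with 5-ASA. The untreated Ad-OSCAR cultures did not overlap with either other group, with log2 fold changes of -2.36 with Ad-OSCAR (SE 0.46, adjusted p = 0.000194, edgeR) and 2.14 with 5-ASA (SE 0.46, adjusted p = 0.00297, edgeR). Its share of the COX6A pair was 0.453%, 0.100% and 0.492% in the 3 groups, and the gene lies over Itgad on the other strand. Cox7a1 had 3 to 9 counts in Control and 10 to 26 in Ad-OSCAR, with overlapping CPM. For the NDUFA4 pair, Ndufa4l2 made up 81.6% ± 1.49 of the TPM in Control, 77.5% ± 0.946 in Ad-OSCAR and 78.7% ± 1.34 with 5-ASA (SD, n = 3). It fell by 0.27 with Ad-OSCAR (SE 0.06, adjusted p = 0.00086, edgeR), and Ndufa4 had a log2 fold change of 0.07 (adjusted p = 0.227, edgeR). Of the common forms, Cox8a rose by 0.30, Cox7a2 by 0.24 and Cox7b by 0.14 with Ad-OSCAR, and Cox6a1 fell by 0.20 with overlapping groups (adjusted p = 0.0217, edgeR). The calls of Cox7b and Cox6a1 were each kept in 14 of 20 alternatives, and that of Cox6a1 was lost with the total count (-0.07).

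ATP synthase was the complex whose nuclear members fell most often: 10 of the 17 tested fell and 2 rose, where 32.2% of all genes fell and 32.7% rose. The complex's median log2 fold change was -0.22 (-0.10 with the total count as scaling). In the F1 head, which makes ATP, 4 of 5 fell. Atp5a1, the alpha subunit, was at 496.6, 484.3 and 468.0 CPM in Control, 358.0, 361.7 and 358.2 CPM in Ad-OSCAR, and 384.1, 371.1 and 365.7 CPM with 5-ASA. It fell by 0.43 with Ad-OSCAR (SE 0.04, adjusted p = 4.35e-08, edgeR), the catalytic beta subunit Atp5b by 0.24 and the gamma subunit Atp5c1 by 0.30 (SE 0.04 and 0.05). The falls of these F1 members were also called with the total count, at -0.30, -0.11 and -0.17.

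All 3 genes for the c subunit, which form the rotating ring in the membrane and encode the same mature protein, fell. Atp5g2 (chromosome 15, 102662864 to 102672352) was at 104.3, 106.7 and 114.4 CPM in Control, 71.3, 74.6 and 65.4 CPM in Ad-OSCAR, and 71.8, 71.0 and 74.6 CPM with 5-ASA. Atp5g1 (chromosome 11, 96068852 to 96075670) was at 58.1, 50.7 and 65.8 CPM, then 35.2, 40.3 and 38.8 CPM, then 40.8, 38.6 and 40.2 CPM. They fell by 0.62 and 0.61 with Ad-OSCAR (SE 0.05 and 0.07; adjusted p = 1.03e-08 and 1.11e-06, edgeR), with no overlap, and Atp5g3 by 0.26. The peripheral stalk members Atp5f1 and Atp5o fell by 0.26 and 0.22. The members that rose, Atp5mpl by 0.26 (23.9, 24.8 and 22.8 CPM to 27.9, 28.5 and 29.5 CPM) and Atp5l by 0.11, belong to the membrane domain.

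Treatment with 5-ASA changed few members. Compared with untreated Ad-OSCAR cells, 3 of 81 nuclear-encoded members rose and 5 fell, where 10.4% of all genes rose and 7.38% fell (17.8% in either direction). Their median log2 fold change was -0.02, and 79 of the 81 (97.5%) differed by less than 1.5-fold, compared with 93.9% of all genes. With the total count as scaling, which moved the median of all genes down by 0.07, 1 rose and 20 fell. The count on TMM depended on single cultures as well: between 1 and 3 rose and between 3 and 6 fell with each culture left out in turn. With Ad-OSCAR replicate 1 left out, 1 rose and 3 fell. Without Ad-OSCAR replicate 2 or treated replicate 1 or 2, 3 fell, and without Ad-OSCAR replicate 3, 1 rose and 6 fell.

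Among the nuclear-encoded members called with 5-ASA, Sdhd, an anchor of complex II, had the largest fall. It was at 89.1, 95.1 and 83.8 CPM in Control, 81.5, 82.5 and 84.2 CPM in Ad-OSCAR, and 73.3, 69.4 and 70.1 CPM with 5-ASA, a log2 fold change of -0.22 (SE 0.05, adjusted p = 0.00465, edgeR). The treated cultures were below all 6 others. Cox7a2 was at 60.3, 60.6 and 62.6 CPM in Ad-OSCAR and 53.3, 54.7 and 51.3 CPM with 5-ASA, and Cox8a at 122.2, 117.5 and 104.9 CPM and then 102.2, 100.1 and 98.5 CPM. Each fell by 0.20 (SE 0.05 and 0.06; adjusted p = 0.00557 and 0.0221, edgeR). Ndufa4 fell by 0.18 and Uqcrfs1 by 0.17 (SE 0.05 each; adjusted p = 0.0109 and 0.0237, edgeR). All 5 calls for a fall also held with the total count. That scaling moved the median of all genes down by 0.07 here, so it does not test a fall. The calls of Cox8a and Uqcrfs1 were lost with some single cultures left out, such as Ad-OSCAR replicate 1 (adjusted p = 0.132 and 0.120, edgeR).

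The nuclear-encoded members that rose with 5-ASA were Cox6a2, given above, Ndufs8 and Cox7a2l. Ndufs8, an iron-sulfur subunit in the Q module of complex I, was at 28.41, 28.23 and 30.66 CPM in Control, 23.5, 25.9 and 21.9 CPM in Ad-OSCAR, and 28.8, 26.5 and 28.8 CPM with 5-ASA. It fell by 0.29 with Ad-OSCAR and rose by 0.24 with 5-ASA (SE 0.07 each; adjusted p = 0.000893 and 0.0151, edgeR). Cox7a2l rose by 0.17 with 5-ASA (SE 0.05, adjusted p = 0.0168, edgeR). With the total count, which moved the median of all genes down by 0.07, the differences were 0.17 and 0.10. They did not pass (adjusted p = 0.0653 and 0.146, edgeR).

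Of the mitochondrial members, mt-Nd4, mt-Nd5, mt-Nd6 and mt-Co1 rose with 5-ASA and 0 fell. Their log2 fold changes were 0.15, 0.27, 0.28 and 0.15 (SE 0.05, 0.05, 0.06 and 0.05; adjusted p = 0.0448, 0.0015, 0.00381 and 0.0365, edgeR). For mt-Nd5 and mt-Nd6 the treated and untreated cultures did not overlap, as for 33.8% of all genes, and for mt-Nd4 and mt-Co1 they did. With the copies added, mt-Co3 rose too, by 0.19 (SE 0.05, adjusted p = 0.0173, edgeR; 5 of 13 rose, against 10.5% of all genes, and 0 fell, against 7.51%), and all 13 differences were above 0, from 0.01 to 0.28. With the total count only mt-Nd5 and mt-Nd6 passed, by 0.20 each, and with limma on log2(TPM + 1) 0 passed, with 2 at an unadjusted p below 0.05, while DESeq2 called 5. Leaving out Ad-OSCAR replicate 1 or 2, or treated replicate 1 or 2, left 2 of the 4 calls each.

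The comparisons with Control and with 5-ASA use the same Ad-OSCAR cultures, so their values are given side by side only. Between treated cells and Control, 8 nuclear-encoded members rose and 37 fell, with a median of -0.10, against 31.4% of all genes higher and 31.8% lower (63.2% in either direction). Of the mitochondrial members 1 was higher (mt-Atp6) and 9 lower as deposited, and 0 higher and 12 lower with the copies added (31.5% and 31.9% of all genes).

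Nuclear genes for the respiratory chain are known for binding sites of the transcription factors NRF1, GABP (an ETS factor), YY1, ERR and SP1 near their start. In the RefSeq table of promoters (GRCm38.p6, 250 bases before to 50 after the start), 68 of the 85 nuclear-encoded members had an entry. The NRF1 letters, GCGC and TGCGC with any 1 base between them, were found on either strand in 16 of these promoters (23.5%), and in 4.78% of all 27025. The others were CCGGAAGT for ETS in 5 (7.35%, all promoters 4.0%), AAGATGGC for YY1 in 9 (13.2%, 2.88%), TNAAGGTCA for ERR in 3 (4.41%, 1.26%) and GGGCGGG for SP1 in 24 (35.3%, 25.8%). The matches are letters in a window and not shown binding sites, and the overlap of matches of different motifs was not counted.

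Matches for NRF1 are shown here in members of 3 complexes, 30 bases each, 5′ to 3′ on the strand of the gene, with the matched letters in capitals.
Atp5g2 (chr15:102671070-102671099, minus strand): ggctccggccGCGCATGCGCagagccttcc
Sdhd (chr9:50603909-50603938, minus strand): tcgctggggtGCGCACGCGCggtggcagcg
Sdha (chr13:74350276-74350305, minus strand): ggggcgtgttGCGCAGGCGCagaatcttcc
Ndufa8 (chr2:36049349-36049378, minus strand): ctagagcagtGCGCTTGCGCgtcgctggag

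The 150 bases before the RefSeq start are shown for 3 members that fell with Ad-OSCAR, with the letters of SP1 (Cox7a2l, Ndufv2) or ERR (Atp5g3) in capitals, on either strand.
Cox7a2l (chr17:83514334-83514483, minus strand): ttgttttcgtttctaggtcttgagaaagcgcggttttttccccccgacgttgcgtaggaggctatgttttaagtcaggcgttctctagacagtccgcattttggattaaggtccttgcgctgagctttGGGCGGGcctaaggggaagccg
Ndufv2 (chr17:66101560-66101709, minus strand): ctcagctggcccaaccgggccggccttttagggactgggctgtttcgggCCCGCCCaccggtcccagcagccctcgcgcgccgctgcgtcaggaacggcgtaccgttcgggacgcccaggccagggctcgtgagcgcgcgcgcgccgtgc
Atp5g3 (chr2:73911327-73911476, minus strand): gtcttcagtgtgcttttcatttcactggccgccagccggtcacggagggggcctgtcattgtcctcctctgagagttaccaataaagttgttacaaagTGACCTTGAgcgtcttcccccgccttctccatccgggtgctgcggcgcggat

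Of the 16 with NRF1 letters, 2 rose and 6 fell (median -0.10 on the log2 scale), and of the 23 tested with SP1 letters, 2 rose and 10 fell, also with a median of -0.10. Of the 9 with YY1 letters, 2 rose and 3 fell (median -0.07), of the 5 with ETS letters 1 rose and 2 fell (median -0.00), and of the 3 with ERR letters 0 rose and 1 fell (median -0.11). The median of all nuclear-encoded members was -0.08, and 18.5% of those tested rose and 40.7% fell. Of all genes 32.7% rose and 32.2% fell.

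Of the regulators of mitochondrial biogenesis looked for, 5 of 9 rose and 2 fell with Ad-OSCAR, where 32.7% of all genes rose and 32.2% fell. Ppargc1a (PGC-1alpha, a coactivator that induces respiratory chain genes) rose from 1.48 to 3.95 CPM on average, by 1.39 (SE 0.20), and Perm1, known from PGC-1alpha signalling in muscle, from 1.31 to 7.74 CPM, by 2.56 (SE 0.14). Gabpa, the DNA-binding subunit of GABP, fell by 0.40 and Pprc1 by 0.33 (SE 0.07 and 0.05). Gabpa lies over the member Atp5j on the other strand. With 5-ASA, 1 of these 9 fell, Perm1 by 0.30 (adjusted p = 0.0447, edgeR), where 7.38% of all genes fell.

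Of the factors that replicate and express mitochondrial DNA, 8 of 25 rose and 5 fell with Ad-OSCAR, with a median of 0.06, against 32.7% and 32.2% of all genes. Mterf4, which takes part in the assembly of the mitochondrial ribosome, fell by 1.64 (SE 0.07), from 154.2 to 49.8 CPM on average, and rose by 0.25 with 5-ASA (adjusted p = 0.0246, edgeR). Hsd17b10, a subunit of mitochondrial RNase P, fell by 0.35 and rose by 0.33 with 5-ASA (SE 0.06 each), and Trmt10c, another subunit of that enzyme, fell by 0.25 with 5-ASA. Fastkd1 rose by 0.84 and Mterf1a by 0.64 with Ad-OSCAR. Of the carriers that exchange ATP for ADP or import phosphate, 3 of the 3 tested fell with Ad-OSCAR, where 32.2% of all genes fell. Slc25a4 was down by 0.58 and Slc25a5 by 0.48 (SE 0.05 and 0.04), and the smallest of the 3 falls was 0.10.

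Of the assembly factors of complexes I and IV, 33.3% and 42.9% were called with Ad-OSCAR, and of all genes 65.0% (32.7% higher and 32.2% lower). For complex I, 3 of 15 rose and 2 fell, with Ndufaf3 up by 0.62 and Timmdc1 by 0.25, and Ecsit down by 0.72 and Acad9 by 0.13. For complex IV, 7 of 21 tested rose and 2 fell, with the copper chaperones Cox17 and Sco2 up by 0.75 and 0.46, and Cmc2 and Cox10, an enzyme of heme A synthesis, down by 0.90 and 0.21. For complex II, 3 of 4 rose and 0 fell, among them Sdhaf3 by 0.44 and Sdhaf1 by 0.40. For complex III 1 of 6 rose, Uqcc1 by 0.36, and 1 fell, Bcs1l by 0.29. For ATP synthase 1 of 5 rose, Atpaf1 by 0.40, and 1 fell, Tmem242 by 0.21. With 5-ASA, where 7.38% of all genes fell, 1 factor each for complexes III and IV fell, Uqcc3 by 0.27 and Cox15 by 0.35. Of 4 tested subunits whose symbols lie outside the rule, 0 passed with Ad-OSCAR by edgeR, DESeq2 or limma, with 1 at an unadjusted p below 0.05 by edgeR. With 5-ASA, 0 passed by edgeR or DESeq2, adjusted or not, and 1 by limma.

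Most members have short transcripts. The tested nuclear-encoded members had a median effective length of 500.9 bases, compared with 2222 bases for all tested genes. The 40 members under 500 bases had a median log2 fold change of 0.02 with Ad-OSCAR, and the 710 genes of that length -0.14. The 26 members from 500 to 1000 bases had a median of -0.22, and the 1724 genes of that length -0.04. In the shorter band the members lay above the median of all genes of that length, and in the longer band below it.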

How the data were processed

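Libraries were made with a stranded mRNA kit and sequenced in 9 cultures, 3 per group. According to the study's methods and the submitters' processing notes, the authors trimmed the reads, aligned them to GRCm38 with STAR 2.7.1a and made estimated (expected) counts and TPM per gene with RSEM 1.3.1. The deposited expected counts carry no library scaling, and the deposited TPM are scaled to transcript length and library. For TPM the study's reporting summary names an older RSEM version and a GENCODE release numbered like a human one, so the annotation behind the values is uncertain, and the strand setting is not given in the sources used here. GENCODE M21 held 55230 of the 55471 identifiers, with version numbers ignored.

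Counts were rounded to whole numbers and tested in R 4.3.3 with edgeR 4.0.16 (TMM, filterByExpr by group, quasi-likelihood F test, 15362 genes, all 9 cultures, group as the only factor, 6 residual degrees of freedom, Benjamini-Hochberg adjustment over all genes). Each SE was taken from the F statistic (log2 fold change over its square root). The biological coefficient of variation was 5.11%. Levels between genes were compared in TPM. Near-identical copies were found with BLAST 2.17.0. On simulated counts with 200 changed genes, 74.0% of those changed by 0.5 and 89.0% of those changed by 1 (log2) were recovered, and 4 of 15152 unchanged genes were called. Cultures of a group differed by more than sampling noise (chi-square per degree of freedom 4.03 to 7.52).

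Alternatives were DESeq2 1.42.0, RLE, upper-quartile and total-count scaling, library sizes without mitochondrial genes, a minimum of 10 counts in each culture, no filter, a fit of only the 2 groups at issue, a block for the replicate number, limma 3.58.1 on log2(TPM + 1) and each culture left out. Adding the reads of copies was chosen after seeing the data. The members and lists were chosen with earlier results of these data known. Named genes were the 8 largest changes in each direction among called members of at least 1 CPM without overlap, all mitochondrial members, isoform pairs and core subunits, and for other lists up to 2 called genes per direction. Others named in a count of 5 or fewer or as examples were chosen after their values were seen. Single values of 1 complex I member are not reported here, though it is in the counts.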

Additional observations from a re-analysis of the deposited data

How the results depend on the processing

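Scaling moved the counts of called nuclear-encoded members most. With the total count, 27 rose and 20 fell with Ad-OSCAR (median 0.0441, mitochondrial median -0.3055), 1 rose and 20 fell with 5-ASA (median -0.0925; mitochondrial members 2 higher), and 14 were higher in treated cells than in Control (median -0.045). Limma on log2(TPM + 1) gave 7 mitochondrial members lower with Ad-OSCAR, 1 nuclear-encoded member higher and 17 lower (median -0.0979) and 0 mitochondrial members higher with 5-ASA, and 5 nuclear-encoded (median -0.1761) and 0 mitochondrial members higher against Control. DESeq2 gave 5 and 0 for these last counts. Upper-quartile scaling left 2 mitochondrial members higher with 5-ASA. Without a filter 8 were higher and 1 lower, and 2 were higher against Control. With the reads of copies added, 0 were higher against Control. The mitochondrial share in Control, Ad-OSCAR and treated cells was 5.063%, 3.83% and 4.076% of TPM, and 2.78%, 2.357% and 2.472% of counts with copies. The causes were not tested.

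Members that did not pass the test changed sign with Ad-OSCAR as follows. The log2 fold change of Sdhc was -0.0012 with DESeq2, -0.0013 with RLE, -0.0316 with limma and -0.0138 without Control replicate 1. With the total count, Sdhd was at 0.015, Uqcrc1 at 0.0484, Uqcrfs1 at 0.1033 and mt-Atp6 at 0.1204. Uqcrfs1 was at 0.0004 with limma and 0.0208 without Ad-OSCAR replicate 3, and Cox6b1 at -0.0313 without Ad-OSCAR replicate 1 and -0.036 without Control replicate 1. As deposited, mt-Atp6 was at 0.0086 with at least 10 counts in every culture, 0.1183 with limma, 0.0047 with upper-quartile scaling, 0.0093 and 0.0003 without Ad-OSCAR replicates 1 and 2, and 0.4527 without Control replicate 2, where it passed (adjusted p = 0.000139). mt-Co2 was at -0.2858 with copies, -0.015 without Ad-OSCAR replicate 3 and -0.1588 without Control replicate 3.

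With single cultures left out, the calls with Ad-OSCAR ranged from 11 to 15 higher and 29 to 33 lower for nuclear-encoded members (median -0.105 to -0.0473) and 0 to 1 higher and 9 to 11 lower for mitochondrial ones (-0.4771 to -0.387). With 5-ASA they ranged from 1 to 3 higher and 3 to 6 lower (-0.0404 to -0.0099), and 2 to 6 higher and 0 to 1 lower (0.0821 to 0.1956). Against Control they ranged from 5 to 8 higher and 34 to 37 lower (-0.1031 to -0.0861), and 0 to 1 higher and 9 to 10 lower (-0.367 to -0.2684). The members that changed sign in such fits ranged from -0.036 to 0.0932 (Cox6b1), -0.0138 to 0.0286 (Sdhc), -0.0465 to 0.0208 (Uqcrfs1), -0.2455 to 0.4527 (mt-Atp6) and -0.1588 to 0.3856 (mt-Co2) with Ad-OSCAR. The mitochondrial share ranged from 1.804% to 1.855% in Control, 1.506% to 1.61% in Ad-OSCAR and 1.612% to 1.711% in treated cells.

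Replicates share numbers across groups, but same-numbered cultures did not deviate together over all genes (r of -0.0724 to 0.0402 over 9 pairs). They were not treated as pairs in the main test, and a shared origin of such cultures was not tested. With the replicate number as a block, 14 nuclear-encoded members were higher and 33 lower with Ad-OSCAR, with 0 and 10 mitochondrial ones, and 3 were higher and 6 lower with 5-ASA, with 3 and 0. The block moved mt-Atp6 to 0.0528, and the calls of mt-Co3 with Ad-OSCAR and mt-Nd4 with 5-ASA were lost (adjusted p = 0.0606 and 0.0547).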

Other observations

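Enzymes that feed the respiratory chain moved in both directions with Ad-OSCAR. Of 17 genes of the TCA cycle and pyruvate dehydrogenase, 8 rose and 8 fell (47.1% each), where 32.7% of all genes rose and 32.2% fell. Pdha1, the E1 alpha subunit of pyruvate dehydrogenase, fell by 0.74 (SE 0.04) and Suclg1 by 0.46 (SE 0.06), while Dlat and Pdhx of the same dehydrogenase complex rose by 0.38 and 0.35 (SE 0.05 and 0.07). With 5-ASA, where 17.8% of all genes passed, 1 of the 17 did, Pdha1, which rose by 0.16 (adjusted p = 0.0163, edgeR). Of 19 electron carriers and entry enzymes, 6 rose (31.6%) and 4 fell (21.1%) with Ad-OSCAR, beside the same shares of all genes. Coq3 of ubiquinone synthesis rose by 0.79 and Sqor, which oxidises sulfide, by 0.69, and Pdss1, which makes the side chain of ubiquinone, fell by 0.94 and Etfb by 0.35.

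Of 78 proteins of the mitochondrial ribosome, which translates the 13 mitochondrially encoded members, 18 rose (23.1%) and 23 fell (29.5%) with Ad-OSCAR. Of all genes 32.7% rose and 32.2% fell. The median log2 fold change of the 78 was -0.01. Mrps6 fell by 1.00 and Mrpl17 by 0.76 (SE 0.06 each), and Mrpl38 and Mrpl53 rose by 0.65 and 0.47 (SE 0.06 and 0.07). With 5-ASA, 0 rose and 4 fell (5.13%), where 10.4% of all genes rose and 7.38% fell. Among the 4 were Mrpl51, down by 0.31, and Mrpl38, down by 0.23 (adjusted p = 0.0084 and 0.00751, edgeR).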
